A study of Drosophila melanogaster with 15 samples.

Results

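The comparison set 3 Drosophila melanogaster RNA libraries titled dpp RNAi #1 (construct 1) against 3 titled control RNAi, which are 6 of the 15 libraries of the study, and covered every gene symbol in the count tables. The libraries were chosen by title alone. The other 9 libraries are 3 of a second RNAi construct against dpp, 3 of dpp overexpression and 3 of a group titled control. Every library carries w1118 as its strain label and RNAi as its treatment label, also the control and overexpression groups. All were dissected material labelled skeletal muscle, from which total RNA was isolated with an RNeasy Micro Kit and made into stranded libraries. The labels used here give no driver for the RNAi constructs, no sex and no age, and nothing in them states whether replicates are separate animals, so the p-values below measure the spread between these samples only. That spread is shared over all 15 libraries, including dpp overexpression, whose replicate 3 differed most from the other libraries of its group. Construct 1 is a single construct, and construct 2 and the control group are set beside it only where they bear on a result.

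Decapentaplegic (dpp) is a secreted ligand of the bone morphogenetic protein (BMP) family. It is bound outside the cell by inhibitors, carriers and cell-surface glypicans, and it signals through paired type I and type II serine/threonine kinase receptors to the Smad proteins Mad and Medea. In flies the pathway patterns the embryo and the imaginal discs and shapes the neuromuscular synapse, and RNAi is used to lower a transcript through a matching double-stranded RNA.

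Gene counts summed to 11244899 to 18083156 in the construct 1 libraries and to 31767317 to 33290702 in control RNAi, so low transcripts were measured less precisely with construct 1. Levels are CPM, that is, gene counts scaled to a common library total with TMM factors, and are not divided by gene length. Replicate 2 of construct 1 stood apart: 477 of 10668 tested genes were at least 2-fold away from the mean of the other construct 1 libraries (355 of them lower), against 331 in replicate 1, 329 in replicate 3 and 103 to 120 in the control RNAi libraries. Groups of genes that rest on it are given with and without it. The number block inside the library codes is shared by both dpp constructs and differs in control RNAi and again in control. The labels do not call it a batch, and block and group cannot be told apart here. As a check of the tissue label, the myosin heavy chain gene Mhc was read at 2084 to 2888 CPM with construct 1 and at 1237 to 1344 CPM in control RNAi. The rhodopsin gene ninaE, chosen after its values were seen, was at 37014 to 40923 and at 34066 to 37300 CPM (log2 fold change 0.11 ± 0.08, adjusted p = 0.339, edgeR), so transcripts of photoreceptors were abundant in libraries labelled as muscle.

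dpp itself was read first, since it checks the label. The libraries labelled as dpp RNAi with construct 1 held 30.4, 32.1 and 33.4 CPM of dpp, and control RNAi held 29.3, 30.3 and 35 CPM. The groups overlapped, and no construct 1 library lay below all control RNAi libraries. The log2 fold change was 0.02 ± 0.13 (SE; adjusted p = 0.942, edgeR's quasi-likelihood test, as for every adjusted p here), against control it was -0.07 (adjusted p = 0.727), and over 11 alternatives it ranged from -0.03 to 0.10. A lower dpp level was therefore not detected, and each direction below belongs to the libraries labelled construct 1, not to a measured loss of dpp. In bulk RNA a change in the number of cells of a type and a change in RNA per cell cannot be told apart, and a loss in a minority of the cells could be diluted.

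Of the BMP genes, most did not pass the test and those that did moved by less than 1.5-fold. In the list of ligands and extracellular regulators, with 15 tested genes, none was called higher and 3 were called lower, and among 11 receptors, Smads and nuclear regulators 1 was higher and 4 were lower, at an adjusted p under 0.05. The first list also holds Cul2 (Cul-2), which is neither a ligand nor an extracellular regulator and was not called (0.03, adjusted p = 0.739). Over all 10668 tested genes 25.7% were called, 13.1% higher and 12.6% lower. The median log2 fold changes of these lists were 0.02 and -0.06, against -0.00 over all genes. Against control 3 were higher and 1 lower in the first list and 3 higher and 2 lower in the second.

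The 3 extracellular regulators called lower were both glypicans and cv-2. The glypican gene dlp, which spreads and presents secreted ligands at the cell surface, was at 61.7, 72.6 and 70.9 CPM with construct 1 and at 92.1, 94.9 and 90 CPM in control RNAi. Every construct 1 library was below every control RNAi library (-0.44 ± 0.07, adjusted p = 0.000389). Against control, however, dlp was higher (0.30, adjusted p = 0.00619). The crossveinless gene cv-2, whose product binds BMPs and modulates them near the receptor, was at 33.6, 29.6 and 30.4 CPM against 37.8, 37.8 and 36.2 CPM. The groups did not overlap (-0.25 ± 0.06, adjusted p = 0.00559), and cv-2 was also lower than in control (-0.17, adjusted p = 0.044). dally, the other glypican, was just past the threshold (-0.16 ± 0.06, adjusted p = 0.049), was not called against control, and lost the call in 6 alternatives. The ligand gbb, a BMP that pairs with Dpp, was at 0.14 (adjusted p = 0.194), and sog, which encodes an antagonist that binds Dpp, was at 0.15 (adjusted p = 0.0527); neither passed.

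Downstream of the ligands, Med (the common Smad, Medea) was the 1 receptor or Smad gene called higher. It was at 55.2, 58.2 and 58.5 CPM with construct 1 and at 48.8, 48.5 and 49.8 CPM in control RNAi. The construct 1 libraries were all above (0.22 ± 0.04, adjusted p = 0.000878). nmo, which encodes the Nemo kinase, an inhibitor of Mad, was at 98.9, 102 and 92.1 CPM against 136, 134 and 136 CPM. All 3 construct 1 libraries were lower (-0.47 ± 0.11, adjusted p = 0.00615), although all 3 were above the control libraries (0.50, adjusted p = 0.00462). The type II receptor genes wit (-0.19, adjusted p = 0.0074) and put (-0.16, adjusted p = 0.0226) and the Smad gene Mad (-0.16, adjusted p = 0.0148) were lower by small amounts. Leaving out 1 library ended the call of Mad or put in some cases, the lowest count for this list being 2 genes lower without control RNAi replicate 2. Targets that report Dpp activity in other tissues, the inhibitory Smad gene Dad (0.04, adjusted p = 0.544) and the repressor gene brk (-0.06, adjusted p = 0.709), did not pass, nor did the type I receptor gene tkv (0.12, adjusted p = 0.0525).

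**Figure D1:**
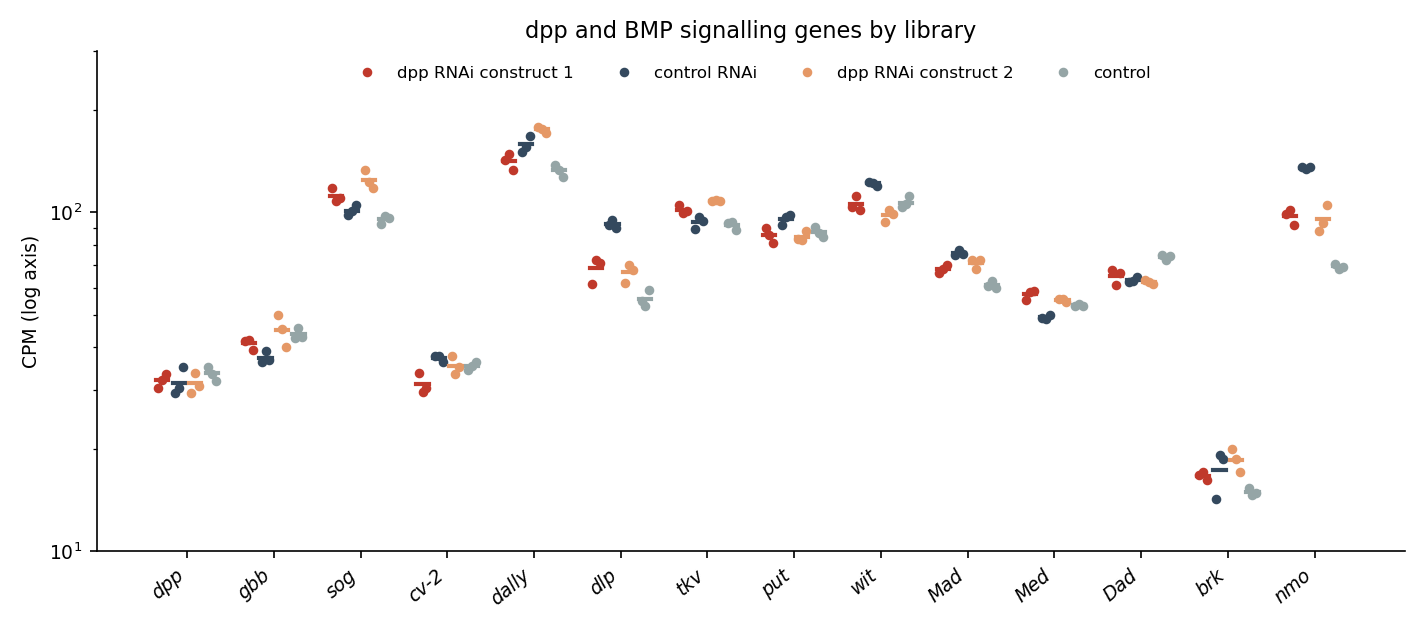
CPM on a log axis of dpp and 13 other BMP signalling genes in the 12 libraries of 4 groups; each point is a library and each bar the mean of 3. The 4 groups overlap for dpp, while dlp and nmo are highest in control RNAi and lowest in control, with both constructs between them.

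Among 19 tested Dpp target genes 2 were called higher and 2 lower than in control RNAi, against 13.1% and 12.6% over all genes. Against control 3 were higher. The Hox gene Ubx and the nuclear factor gene dac were higher than in control RNAi (3.69 ± 0.68 and 0.26 ± 0.07). The homeobox gene hth and the T-box gene bi were lower (-0.46 ± 0.07 and -0.29 ± 0.10). Ubx did not pass against control (0.37, adjusted p = 0.544). bi lost its call when construct 1 replicate 2 was left out (-0.15). Of 6 genes of the activin branch, the sister pathway that signals through the receptor Baboon, 4 were lower and none higher. The ligand gene daw was at 59.9, 61.6 and 62.8 CPM with construct 1 and at 73.9, 116 and 130 CPM in control RNAi. The construct 1 libraries were alike, and the spread lay in control RNAi, whose replicate 1 was nearest to them (-0.80 ± 0.22, adjusted p = 0.0189). The ligand genes myo (-0.30 ± 0.05) and Actbeta (-0.29 ± 0.06) and the receptor gene babo (-0.13 ± 0.04, adjusted p = 0.0382) were also lower. With single libraries left out, 2 to 4 of the 6 were called. Against control, none was lower, and myo (0.19) and babo (0.14) were higher.

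Outside BMP signalling the libraries differed widely. Against control RNAi 1395 genes were called higher and 1349 lower with construct 1, and 276 (2.59%) and 168 (1.57%) of the tested genes were changed by at least 2-fold. Against control, which is a second reference that shares the construct 1 libraries, 2621 genes (24.6%) were called, 1369 higher and 1252 lower (12.8% and 11.7%). Against construct 2, 1283 genes (12%) were called, 605 higher and 678 lower (5.67% and 6.36%). The reference groups themselves differed: 4823 genes (45.2%) were called between control RNAi and control. In the same direction against both references, 290 genes (2.72%) were called higher and 279 (2.62%) lower. The main gene groups below are therefore also given against control.

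**Figure D2:**
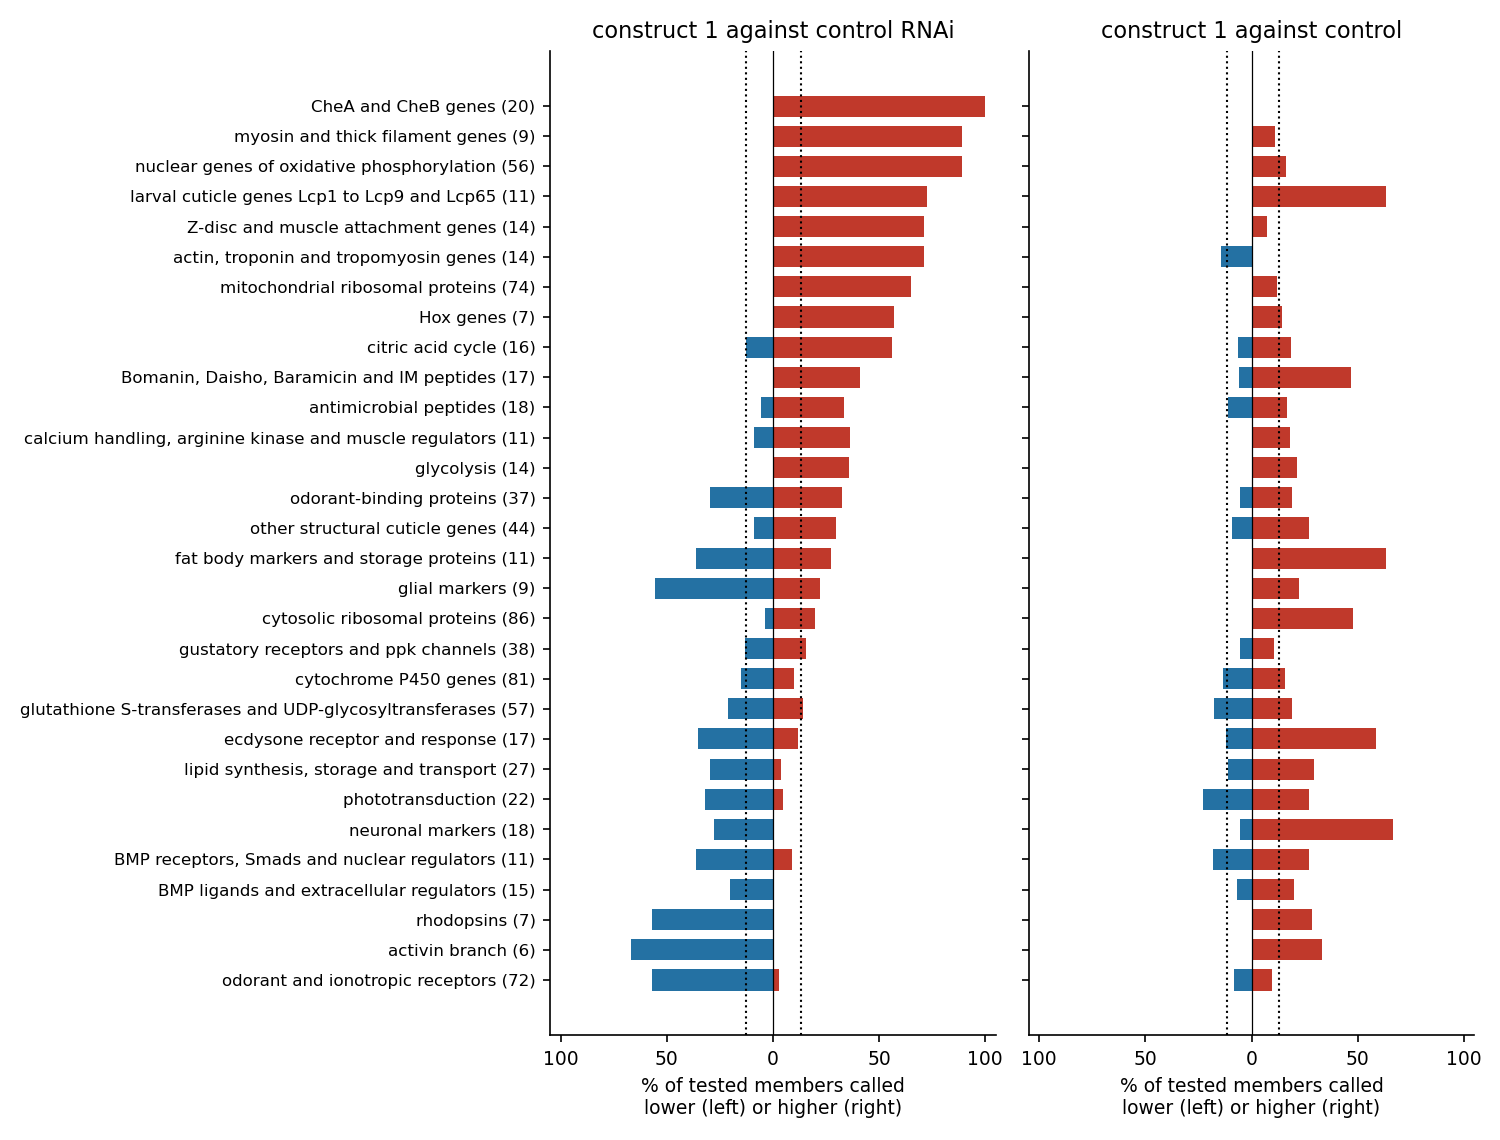
Share of tested members of 30 gene groups called higher (right, red) or lower (left, blue) with construct 1, against control RNAi and against control; the number tested is in brackets and dotted lines mark the shares over all tested genes. CheA and CheB, sarcomere (myosin, actin and Z-disc) and oxidative phosphorylation genes reach 71 to 100% higher against control RNAi and at most 16.1% against control, while larval cuticle genes exceed 60% in both. Larval cuticle genes with few or no counts in both references passed the filter through other groups.

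Sarcomere genes formed one of the broadest differences from control RNAi. Of 9 tested myosin and thick filament genes 8 were higher and none lower (median log2 fold change 1.07), of 14 actin, troponin and tropomyosin genes 10 were higher (0.86), and of 14 Z-disc and muscle attachment genes 10 were higher (0.89). Mhc, the motor of the thick filament, was at 2888, 2084 and 2877 CPM with construct 1 against 1237, 1297 and 1344 CPM in control RNAi. Even the lowest construct 1 library, replicate 2, was above every control RNAi library (1.02 ± 0.14, adjusted p = 0.000214). Against control Mhc did not pass (-0.03, adjusted p = 0.925), nor against construct 2 (-0.02, adjusted p = 0.937).

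The size of the difference varied with the isoform. Act79B, the actin of tubular muscles such as those of the legs, was at 540, 240 and 488 CPM against 40.3, 37.9 and 37.6 CPM. It was higher in all 3 libraries, and replicate 2 was the lowest of them (3.45 ± 0.31, adjusted p = 6.8e-05). TpnC41C, a troponin C gene, was higher by 2.61 ± 0.30, and the muscle LIM protein genes Mlp84B and Mlp60A by 2.23 ± 0.21 and 2.02 ± 0.21. Act88F, the actin of indirect flight muscle, was at 28.2, 17.5 and 29 CPM against 8.7, 8.46 and 9.25 CPM and was higher by 1.50 ± 0.21. Act57B was at 463, 487 and 528 CPM against 443, 405 and 471 CPM. Its groups overlapped and it did not pass (0.16 ± 0.09, adjusted p = 0.221). Act88F and Act57B were named after their values were seen.

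Genes of giant and regulatory sarcomere proteins were higher too. bt, which encodes the giant kinase projectin, was higher by 1.64 ± 0.19, sls (the titin relative sallimus) by 1.37 ± 0.17, up (troponin T) by 1.48 ± 0.19, Mlc2 (myosin regulatory light chain) by 1.13 ± 0.14 and Prm (paramyosin) by 1.41 ± 0.15. Of 11 tested genes of calcium handling, arginine kinase and muscle regulation 4 were higher and 1 lower (median 0.07). SERCA (Ca-P60A), the pump that returns calcium to the sarcoplasmic reticulum, was higher by 1.20 ± 0.18 (adjusted p = 0.000534). nau, the single MyoD relative of the fly, was at 7.01, 2.32 and 4.59 CPM against 0.802, 0.623 and 0.559 CPM and was higher in every library (2.85 ± 0.40). CG43897 and CG9297, for which no role is given, rose by 1.42 ± 0.19 and 1.45 ± 0.20 and were among the 10 most abundant genes with a change of at least 2-fold.

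Summed over the 9 thick filament genes, the levels were 8315, 5484 and 7557 CPM with construct 1, 3149 to 3301 CPM in control RNAi, 6584 to 9228 CPM with construct 2 and 6568 to 7429 CPM in control. Control RNAi was the low group, and the construct 1 libraries spanned those of control. Replicate 2 of construct 1 had the lowest level of its group for 8 of 9 thick filament, 12 of 14 thin filament and 13 of 14 Z-disc genes. Without it 8, 11 and 11 genes were higher, with medians of 1.23, 1.13 and 1.02. Against control, 1 thick filament and 1 Z-disc gene were higher, no thin filament gene was higher and 2 were lower, and the medians were 0.02, 0.10 and 0.03.

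Mitochondrial genes were higher with construct 1 by smaller and more even amounts. Of 56 tested nuclear genes of oxidative phosphorylation 50 were higher and none lower (median 0.50, against -0.00 over all genes), of 74 mitochondrial ribosomal protein genes 48 were higher and none lower (0.31), and 9 of 16 genes of the citric acid cycle rose and 2 fell (0.22). Against control 9 of the 74 were higher and none lower (0.06), and 3 of the 16 were higher and 1 lower (0.01). ND-24 (CG5703), a complex I subunit gene, was at 153, 111 and 137 CPM against 68.3, 51.8 and 59.6 CPM. All construct 1 libraries were above control RNAi (1.16 ± 0.13, adjusted p = 8.19e-05), and ND-24 was the only gene of the 56 with a change of at least 2-fold. Other complex I genes, ND-B17 (l(2)35Di, 0.73 ± 0.07) and ND-51 (CG9140, 0.67 ± 0.08), and the succinate dehydrogenase gene SdhD (CG10219, 0.76 ± 0.09) were higher too. Of these, ND-B17 and SdhD were also higher than in control (0.36, adjusted p = 0.00156, and 0.25, adjusted p = 0.0452).

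Over the 56 genes the summed level was 17374, 14561 and 16963 CPM with construct 1 and 11451 to 12320 CPM in control RNAi, against 15290 to 15680 CPM in control. The order of groups was thus that of the sarcomere genes, with control RNAi lowest and replicate 2 lowest of construct 1 (for 53 of 56 genes). Without replicate 2, 51 genes were higher. Against control 9 of the 56 genes were higher and none lower, with a median of 0.08. Among mitochondrial ribosomal proteins mRpL36 (0.74 ± 0.12) and mRpS18C (0.63 ± 0.09) moved most of the 4 named by the rule, and 33 to 48 genes were called when single libraries were left out. Cytosolic ribosomal protein genes moved less: 17 of 86 were higher and 3 lower (median 0.07), which became 9 higher without construct 1 replicate 2 and 7 without control RNAi replicate 3. Against control 41 of 86 were higher and none lower (0.18).

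Among glycolytic genes 5 of 14 were higher and none lower, with a median of 0.08, and 3 were higher than in control (0.07). Pgk (phosphoglycerate kinase, 0.36 ± 0.05, adjusted p = 0.00012) and Tpi (triose phosphate isomerase, 0.31 ± 0.06, adjusted p = 0.00189) were higher against control as well (0.35 and 0.39). Genes of glycogen and trehalose metabolism were higher in 4 of 10 cases, and against control 2 were higher and 3 lower. The glycogen synthase gene Glys (CG6904) was higher than in control RNAi (0.45 ± 0.08) and lower than in control (-0.34, adjusted p = 0.00389).

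Every tested gene of the CheA and CheB families, 20 of 20, was higher with construct 1, each by at least 2-fold, with a median log2 fold change of 5.16. These genes encode small secreted proteins related to lipid-binding proteins, several of which are made in taste sensilla of the male legs. CheA75a was at 118, 37.3 and 71.8 CPM with construct 1 and at 1.3, 1.44 and 0 CPM in control RNAi. The groups were far apart, with replicate 2 the lowest of construct 1 (6.39 ± 0.83, adjusted p = 8.91e-05). CheB42a, which acts in the response to a female pheromone, was at 29.6, 11.3 and 18.8 CPM against 2.74, 2.13 and 2.23 CPM (3.10 ± 0.39, adjusted p = 0.000184). These 2 genes were named after their values were seen. By the rule, CheA29a was higher by 3.77 ± 0.44, CheA56a by 4.97 ± 0.76, CheB42b by 4.70 ± 0.53 and CheB38c by 5.76 ± 0.91. CheA86a had 1 count in all of control RNAi, and its ratio was 365 (95% counting interval 64.6 to 14511).

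Against control none of the 20 genes was called in either direction by edgeR or DESeq2, and none had an unadjusted p under 0.05, against 36.1% of all tested genes. Their log2 fold changes against control lay between -0.44 and 0.94 (median 0.25). Against construct 2 neither tool called a gene, and 4 had an unadjusted p under 0.05, all lower (26.9% of all tested genes; median -0.56). Summed levels were 465, 161 and 310 CPM with construct 1, 20.9, 14.9 and 11.9 CPM in control RNAi, 373 to 619 CPM with construct 2 and 232 to 317 CPM in control. Control RNAi again stood below all other groups. Replicate 2 was the lowest construct 1 library for all 20 genes, and without it 20 of 20 were still called higher (median 5.41). Neighbouring CheA and CheB genes are similar in sequence, so the division of counts among them is uncertain.

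Gustatory receptor and ppk channel genes had no common direction. Of 38 tested, 6 were higher and 5 lower (15.8% and 13.2%; median -0.11), near the shares over all genes, and 4 were higher and 2 lower against control (-0.07). The higher ones included ppk23, a sodium channel subunit of pheromone-sensing neurons, at 11.8, 4.17 and 8.73 CPM against 1.3, 0.656 and 1.3 CPM (2.94 ± 0.38, adjusted p = 0.000136), and ppk10 (2.57 ± 0.39). The lower ones included the sugar receptor gene Gr64f (-1.36 ± 0.30) and, named after their values were seen, the carbon dioxide receptor genes Gr21a (-1.98 ± 0.53) and Gr63a (-2.15 ± 0.65), which act in the antenna. Of 7 Hox genes, which mark body regions, 4 were higher and none lower (median 0.53), and 1 was higher than in control (0.12). Antp, the Hox gene of the thorax, was at 16.1, 6.25 and 13.1 CPM against 3.08, 2.53 and 3.26 CPM. Each construct 1 library exceeded each control RNAi library (2.02 ± 0.29, adjusted p = 0.000296).

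Ubx, which acts in the posterior thorax and the abdomen, was at 5.72, 1.04 and 2.52 CPM against 0.247, 0.262 and 0.248 CPM. Scr, of the labium and the first thoracic segment, was higher by 0.53 ± 0.11. Neither Antp (0.29, adjusted p = 0.427), Ubx (0.37, adjusted p = 0.544) nor Scr (0.10, adjusted p = 0.548) passed against control. abd-A, the Hox gene of the abdomen, was different: it was at 0.504, 0.561 and 0.99 CPM with construct 1, at 0, 0 and 0.031 CPM in control RNAi and at 0 in all control libraries. Its ratio to control RNAi was 62 (95% counting interval 10.2 to 2538) and it was at least 32.1-fold higher than in control, where the floor is 3 counts summed over the group. The construct 1 libraries held 27 counts of abd-A in all. With construct 2 abd-A was at 0.307, 0.753 and 0.322 CPM, and the constructs did not differ past the threshold (0.53, adjusted p = 0.518). Summed over the Hox list the levels were 113, 92.7 and 107 CPM with construct 1 and 73.7, 73.1 and 87.8 CPM in control RNAi. By summed level, replicate 2 was thus lowest of construct 1 for Hox, sarcomere, CheA and CheB genes alike, and the part of the body regions dissected in these differences was not tested.

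Genes of olfaction went the other way. Of 72 tested odorant and ionotropic receptor genes (52 more were under the filter) 41 were lower with construct 1 and 2 higher, 35 of the 41 by at least 2-fold, with a median of -1.35. Orco, the co-receptor needed by the odorant receptors, was at 21.6, 6.01 and 14.9 CPM with construct 1 and at 68, 65.9 and 91.7 CPM in control RNAi. All construct 1 libraries were lower (-2.36 ± 0.39, adjusted p = 0.00141; named after its values were seen). The receptor gene Or92a, at 1.12, 0.16 and 0.63 CPM against 4.93, 4.26 and 5.8 CPM, was lower by -2.85 ± 0.39 on the log2 scale, and Or85b (-3.50 ± 0.74), Or98a (-3.20 ± 0.95), Or85e (-2.93 ± 0.57), Or65b (-2.72 ± 0.65) and Or43a (-2.59 ± 0.75) were among the 12 genes lower by the most.

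Against control 7 receptor genes were higher and 6 lower (median -0.06), and Orco did not pass (0.06, adjusted p = 0.946). Against construct 2 none was higher and 13 were lower (median -0.83), with Orco at -1.61 (adjusted p = 0.0267). Summed levels were 163, 121 and 141 CPM with construct 1, 249 to 323 CPM in control RNAi, 185 to 244 CPM with construct 2 and 138 to 160 CPM in control. Control RNAi was thus the highest group and construct 1 overlapped control. Replicate 2 was the lowest construct 1 library for 41 of 72 genes, and without it 38 were lower and the median was -1.01.

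Odorant-binding protein genes were split. Of 37 tested, 12 were higher and 11 lower, and against control 7 were higher and 2 lower (median 0.16). Genes of antennal binding proteins were among the lower ones: Obp19d (Pbprp2) at -0.86 ± 0.11, lush, whose product carries the male pheromone cis-vaccenyl acetate, at -1.81 ± 0.30, Os-C at -2.01 ± 0.45, Obp28a (Pbprp5) at -2.07 ± 0.41 and a5 at -2.16 ± 0.39. All but Obp19d were named after their values were seen. Higher were Obp56a, at 88.3, 41.5 and 57.9 CPM against 8.97, 8.86 and 6.33 CPM (2.97 ± 0.31, adjusted p = 0.000103), and Obp19b (2.43 ± 0.28). Neither Obp56a (-0.02) nor Obp19b (0.27) passed against control.

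**Figure D3:**
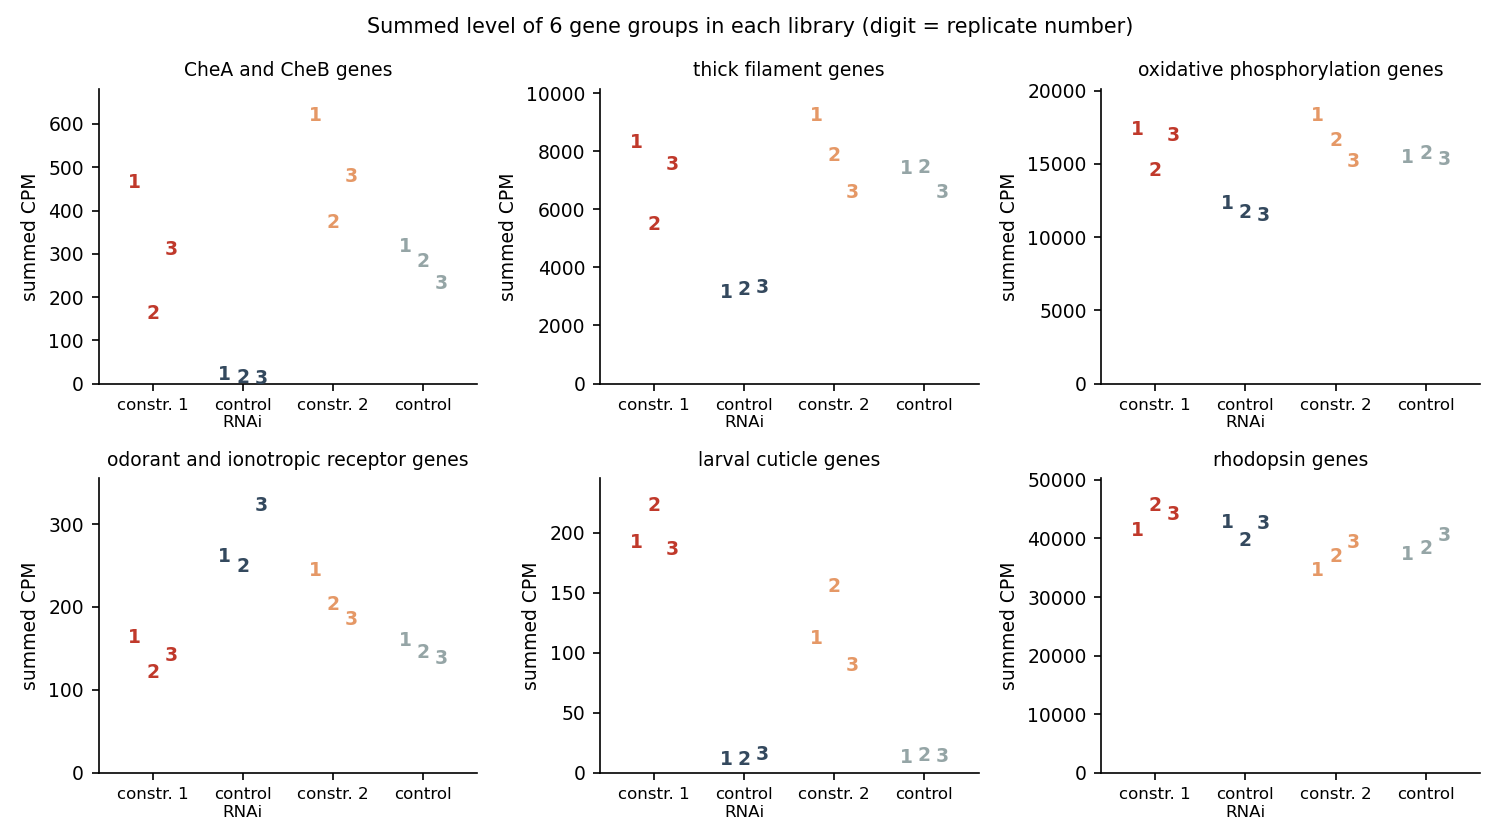
Summed CPM of 6 gene groups in each of 12 libraries, on linear axes from 0; the digit is the replicate number. Control RNAi lies below the 3 other groups for CheA and CheB, thick filament and oxidative phosphorylation genes and above them for odorant and ionotropic receptor genes, and larval cuticle genes are high with both constructs only.

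Larval cuticle genes were higher with construct 1 than with either reference. They encode structural chitin-binding proteins of the larval skin. Of 11 tested genes of the Lcp1 to Lcp9 and Lcp65 groups (6 more were under the filter) 8 were higher than in control RNAi and none lower, with a median of 7.16, and 7 were higher than in control (8.20). Members with few or no counts in both references passed the filter through other groups, where their counts were higher. The share called higher and the median therefore follow in part from the filter. Lcp1 was at 56.1, 74 and 65.6 CPM with construct 1 and at 0.185, 0.0984 and 0.0621 CPM in control RNAi. There was no overlap, and replicate 2 was the highest library (9.09 ± 0.76, adjusted p = 7.33e-09, against control 8.25). Lcp3 was at 52.2, 50.9 and 42.6 CPM against 0.37, 0.197 and 0.434 CPM (7.16 ± 0.36, adjusted p = 3.56e-10).

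Lcp4 was at 46.5, 54.6 and 38.8 CPM against 0.0925, 0.0328 and 0.031 CPM and was higher by 9.69 ± 1.16. Lcp2 was at 15.6, 21.6 and 18.5 CPM and had no count in control RNAi, which makes it at least 577-fold higher. Lcp65Ab1 and Lcp65Ab2 had no count in control RNAi or control and were at least 111-fold and 119-fold higher than in control RNAi. Lcp1 to Lcp4, and likewise Lcp65Ab1 and Lcp65Ab2, are close copies, so counts may have been divided among them. Lcp9 had 2 counts in control RNAi (ratio 23, 95% counting interval 5.58 to 203).

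The same genes were also read with construct 2, and the levels there were mostly lower than with construct 1. Lcp3 was at 48.6 ± 5.22 CPM with construct 1 and 16.8 ± 4.2 CPM with construct 2 (SD, n = 3; 1.54 ± 0.16, adjusted p = 3.18e-05), and Lcp2 at 18.6 ± 2.96 and 10.6 ± 3.57 CPM (0.81, adjusted p = 0.0245). Lcp1 (0.58 ± 0.18, adjusted p = 0.0519) and Lcp4 (0.45 ± 0.20, adjusted p = 0.165) did not pass. Leaving out construct 1 replicate 2 left 8 larval cuticle genes higher than in control RNAi, with a median of 7.13.

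Other cuticle genes were mixed. Of 44 tested (73 were under the filter) 13 were higher and 4 lower against control RNAi, with a median of 0.06, and 7 were higher and 2 lower against both references. Cpr49Ac was at 19, 34 and 32 CPM against 0.802, 0.361 and 0.496 CPM (5.65 ± 0.36, adjusted p = 3.32e-08), and Cpr78E was at 7.51, 8.73 and 7.11 CPM with 1 count in each control RNAi library (ratio 246, 95% counting interval 83.6 to 1201). The pupal cuticle gene Pcp (2.83 ± 0.31) and, named after its values were seen, the ecdysone-regulated cuticle gene Edg91 (2.59 ± 0.57) were also higher than in both references. Cpr51A was lower (-1.39 ± 0.21, against control -1.25). Among genes with CG identifiers only, CG42500 (27.1, 36.7 and 31.2 CPM against 0.0308, 0.0984 and 0.124 CPM), CG13731 (6.19 ± 0.56) and CG32249 (ratio 230, 95% counting interval 62.7 to 1909) had the same pattern over the groups.

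Genes of the larval fat body changed in part. Fbp1, the receptor through which the fat body takes up storage proteins, was at 2.24, 2.64 and 3.6 CPM against 0.216, 0.131 and 0.31 CPM. Every construct 1 library was higher (3.63 ± 0.36, adjusted p = 2.93e-06, against control 2.92). Fbp2 (3.18 ± 0.92) and the larval serum protein gene Lsp1gamma (2.38 ± 0.34) were also higher than in both references. Lsp2, another larval serum protein gene, was at 1382, 1794 and 1724 CPM against 1433, 1641 and 1128 CPM. It overlapped control RNAi (0.22 ± 0.30, adjusted p = 0.634) and was higher than in control (2.03, adjusted p = 0.000742). Lsp1beta was lower than in control RNAi (-0.43 ± 0.12) and higher than in control (1.54). In all, 3 of 11 genes were higher and 4 lower against control RNAi, and 7 were higher and none lower against control. The gene to (takeout) was lower than in control RNAi (-1.31 ± 0.16) and did not pass against control (-0.01, adjusted p = 0.985).

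**Figure D4:**
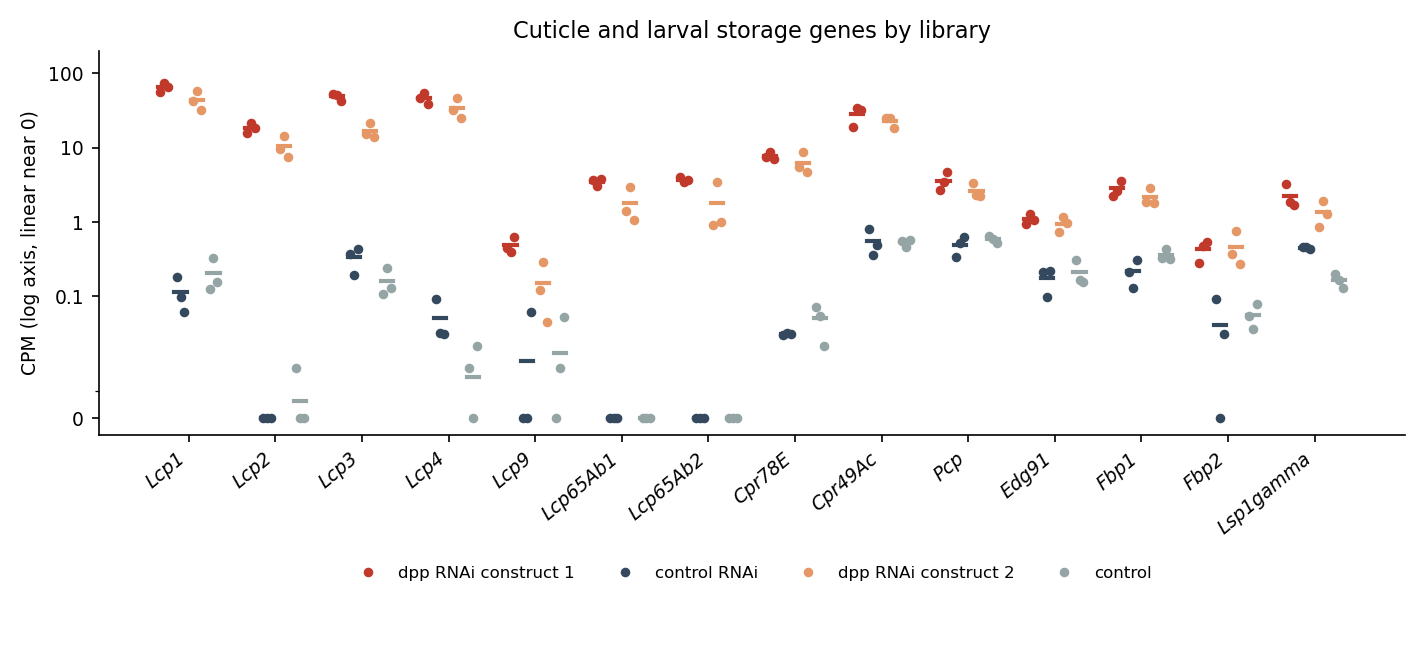
CPM of 14 cuticle and larval storage genes in 12 libraries, on a log axis that is linear near 0; points are libraries and bars are means of 3. For all 14 genes the construct 1 libraries lie above those of control RNAi and control, and the construct 2 libraries lie near construct 1 or below it.

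Genes of the eye that were called against control RNAi were mostly lower with construct 1. Of 7 rhodopsin genes 4 were lower and none higher (median -0.26), of 22 phototransduction genes 7 were lower and 1 higher (-0.13), and of 6 genes of eye and lens structure 3 were lower. The shares over all tested genes were 12.6% lower and 13.1% higher. Against control 2 rhodopsin genes were higher and none lower (0.16), 6 phototransduction genes were higher and 5 lower (-0.03), and 2 structural genes were higher and 1 lower (0.12). Rh5, the blue-sensitive rhodopsin of inner photoreceptors, was at 340, 378 and 343 CPM against 564, 596 and 559 CPM. It was lower than in control RNAi in every library (-0.70 ± 0.07, adjusted p = 6.29e-06) and higher than in control (0.66) and with construct 2 (0.80, adjusted p = 1.83e-06). Rh2 (-0.27), Rh3 (-0.27) and Rh4 (-0.26) were lower than in control RNAi, but Rh3 was higher than in control (0.29, adjusted p = 0.00751), and Rh2 (0.16) and Rh4 (-0.10) were not called there. Rh6 was not called (-0.06, adjusted p = 0.535; named after its values were seen). Leaving out construct 1 replicate 1 left 2 of the 4 calls.

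A few eye genes were lower than in both references. retinin, which encodes a corneal protein, was at 267, 282 and 282 CPM with construct 1, against 611, 544 and 549 CPM in control RNAi and 594 ± 48 CPM in control. The difference held against both (-1.04 ± 0.14, adjusted p = 0.000192, and -1.10, adjusted p = 9.08e-05), and construct 2 lay at 265 ± 12.6 CPM. ninaG, needed to make the rhodopsin chromophore, was lower by -0.63 ± 0.07 and -0.44 on the log2 scale. The scavenger receptor gene ninaD, which mediates carotenoid uptake, was at 2.52, 1.84 and 1.8 CPM against 5.61, 7.58 and 4.53 CPM (-1.48 ± 0.26), and was lower than in control (-0.95) and construct 2 (-2.56). inaF-B was the phototransduction gene called higher (0.64 ± 0.10, against control 1.00).

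Immune peptide genes were called in both directions, with more higher than lower. Of 18 antimicrobial peptide genes 6 were higher and 1 lower (median 0.59), and of 17 genes of Bomanins, Daishos, a Baramicin and other IM peptides, most of them short peptides induced by Toll signalling, 7 were higher and none lower (0.39). Against control the counts were 3 higher and 2 lower (0.39) for the antimicrobial peptides and 8 higher and 1 lower (0.37) for the other peptides. Dro, the drosocin gene, was at 11.7, 11.9 and 9.18 CPM against 4.29, 3.94 and 3.66 CPM. All construct 1 libraries were higher (1.47 ± 0.23, adjusted p = 0.000725), also than in control (1.44). Mtk (metchnikowin, 1.90 ± 0.43, adjusted p = 0.00808) and Dpt (diptericin, 2.26 ± 0.53, adjusted p = 0.00842) were higher than in control RNAi only among these references, with -0.12 (adjusted p = 0.86) and 0.49 (adjusted p = 0.436) against control. BomBc2 (CG15067) was higher by 0.72 ± 0.09 and Dso2 (IM14) by 0.75 ± 0.12, and both were higher than in control (0.59 and 1.06). Of receptors and pathway components, 1 of 10 peptidoglycan recognition protein genes was higher and 1 lower, and of 21 Toll and Imd components 1 was higher and 2 were lower. The counts for these receptors and components were below the shares over all tested genes (13.1% higher and 12.6% lower).

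Lipid genes were lower than in control RNAi in 8 of 27 cases and higher in 1 (median -0.19), but against control 3 were lower and 8 higher (0.10). The shares over all tested genes were 12.6% lower and 13.1% higher, and against control 11.7% and 12.8%. Desat1, the fatty acid desaturase gene, was at 3083, 3519 and 2984 CPM against 4268, 4982 and 4608 CPM, below control RNAi in every library (-0.53 ± 0.07, adjusted p = 0.000113). In control it was at 1650 ± 70.9 CPM, which put construct 1 between the references (0.95, adjusted p = 1.8e-07). CG10924, for which no role is given here, had the same order of groups (-1.07 ± 0.09 against control RNAi and 1.08 against control). mdy, which encodes the acyltransferase midway of triglyceride synthesis, was lower than in control RNAi (-0.41 ± 0.07), control (-0.33) and construct 2 (-0.60).

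Some hormone and growth genes also lay between the references. Of 17 genes of the ecdysone receptor and response 6 were lower than in control RNAi and 2 higher, whereas 10 were higher than in control and 2 lower. The shares over all tested genes were 12.6% lower and 13.1% higher, and against control 11.7% and 12.8%. EcR, Eip75B, Eip93F and Hr3 (Hr46) were lower than in control RNAi and higher than in control. MsrA (Eip71CD) and Cyp18a1 were higher than in both, and ImpE1 was lower than in both. Cyp18a1 was just past the threshold against control RNAi (adjusted p = 0.0495), and its libraries overlapped those of control RNAi. The steroid-response factor gene Eip93F was at 213, 173 and 170 CPM against 281, 317 and 297 CPM (-0.69 ± 0.09, adjusted p = 0.000146) and was higher than in control (0.73). Of 20 insulin, Tor and growth genes 4 were lower and none higher, and against control 9 were higher and 3 lower (median 0.13). Myc (dm), the growth-promoting transcription factor gene, was lower than in control RNAi (-0.68 ± 0.08) and higher than in control (0.41). Ilp3, an insulin-like peptide gene of brain neurosecretory cells, was at 7.45, 7.45 and 6.21 CPM against 11.3, 14.4 and 10.6 CPM and was lower than in both (-0.77 ± 0.12 and -0.72).

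A minority of neuronal markers and most glial markers were called against control RNAi. Of 18 neuronal markers 5 were lower and none higher (median -0.20), but 12 were higher and 1 lower against control (0.26). The vesicular acetylcholine transporter gene VAChT was lower by -0.45 ± 0.07 against control RNAi and higher by 0.31 against control. The count of 5 was 2 without construct 1 replicate 2, 1 without construct 1 replicate 3 and 1 without control RNAi replicate 2. With other scaling, filtering, fits or DESeq2 it was 6 to 10. Of 9 glial markers 5 were lower and 2 higher (median -0.23), and against control 2 were higher and none lower (0.07). The lower ones included the glutamine synthetase gene Gs2 (-0.31 ± 0.05) and the glutamate transporter gene Eaat1 (-0.32 ± 0.06). The 2 higher ones were repo (0.18 ± 0.05, adjusted p = 0.0218) and wrapper (0.26 ± 0.07, adjusted p = 0.0128). repo was also higher than in control (0.35), and wrapper was not called there (0.03). Of 11 haemocyte markers 1 was higher and 2 were lower, and of 8 tracheal markers 1 was lower and none higher, against 13.1% higher and 12.6% lower over all genes. Of 9 basement membrane genes none was called by edgeR or DESeq2 and 1 had an unadjusted p under 0.05 (37.5% of all tested genes), and of 6 male accessory gland and testis genes none was called or had such a p. The median of the basement membrane genes was 0.25. The shared fit includes dpp overexpression, where Ppn was at 471, 514 and 100 CPM. Ppn was at 0.55 ± 0.45 against control RNAi, so a modest difference in such genes could have been missed.

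Detoxification genes were called in both directions. Of 81 tested cytochrome P450 genes 8 were higher and 12 lower, and of 57 glutathione S-transferase and UDP-glycosyltransferase genes 8 were higher and 12 lower. Over all tested genes the shares were 13.1% higher and 12.6% lower. Against control the counts were 13 and 11 for the P450 genes and 11 and 10 for the others. The shares over all genes there were 12.8% and 11.7%. Cyp6a2, a P450 gene linked to insecticide resistance, was at 39.7, 38.6 and 42 CPM with construct 1 and at 143, 141 and 151 CPM in control RNAi. The levels were tight within each group and far apart between them (-1.85 ± 0.05, adjusted p = 4.5e-13). Cyp6a2 was also lower than in control (122 ± 1.07 CPM, -1.61) and with construct 2 (194 ± 3.93 CPM, -2.27). Cyp28c1 (-1.35 ± 0.14) was lower than in control RNAi but did not pass against control (-0.06). The glutathione S-transferase gene GstD8 had the same order, at 1.01, 1.28 and 1.35 CPM against 4.56, 3.9 and 5.8 CPM (adjusted p = 4.47e-05), with -0.30 against control. Of 23 heat-shock and chaperone genes 2 were higher and 5 lower, and against control none was higher and 3 were lower. Hsp70Aa was at 6.11, 7.53 and 7.02 CPM against 12.5, 123 and 71.1 CPM, so the spread lay in control RNAi, and the call (-3.33 ± 0.97, adjusted p = 0.0243) was lost without construct 1 replicate 1, 2 or 3 or control RNAi replicate 2 or 3. Without construct 1 replicate 2 or control RNAi replicate 2, 1 gene of this list was lower. The range was 1 to 7 genes with single libraries left out and 1 to 11 with other scaling, filtering, fits or DESeq2. Hsp70 genes are near-identical copies.

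Among the genes with the most negative change, CG30054 was at 2.3, 2.4 and 3.06 CPM with construct 1 against 33.6, 29.8 and 30 CPM in control RNAi. The 3 libraries of each group were close together (-3.61 ± 0.24, adjusted p = 1.55e-07). In control it was at 2.14 ± 0.411 CPM and did not differ past the threshold (0.24, adjusted p = 0.568). Mur18B, a gene of mucin type, was at 0.28, 0.16 and 0.09 CPM against 4.9, 2.43 and 0.838 CPM (-3.80 ± 1.16), with a wide spread in control RNAi. Arc1, whose product forms capsid-like particles that carry its own RNA between neurons and muscle, was at 422, 331 and 541 CPM against 1016, 1391 and 726 CPM (-1.28 ± 0.24, adjusted p = 0.00246) and was higher than in control (1.03).

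A smaller set of genes set construct 1 apart from control RNAi, construct 2 and control at once. These comparisons share the construct 1 libraries. By the requirement of a call in all 3, 41 genes (0.384%) were higher and 50 (0.469%) lower. CG3085, which encodes a protein of the tektin family of ciliary and sperm tail filaments, was at 7.96, 8.41 and 7.02 CPM with construct 1 and at 0.0617, 0.492 and 0.217 CPM in control RNAi. The levels were low in the other groups too (0.493 ± 0.216 CPM with construct 2 and 0.208 ± 0.0672 CPM in control), and CG3085 was higher by 4.93 ± 0.43, 3.94 ± 0.41 and 5.16 ± 0.39 against control RNAi, construct 2 and control. AttA, an attacin gene, was at 14.9, 25.8 and 10.6 CPM against 5.27, 6.99 and 8.66 CPM (1.29 ± 0.31, 2.01 and 3.56); it has a near-identical copy, and its call was lost when only the compared groups were fitted.

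Further genes higher in all 3 comparisons included Mdr50, a multidrug transporter gene (1.32 ± 0.23, 0.98 and 4.22), CG33468 (2.69 ± 0.46, 1.75 and 3.27), the transporter gene Ntl (1.29 ± 0.31, 1.18 and 1.20), CG8157 (1.06 ± 0.20, 1.07 and 0.85) and CG16879 (0.91 ± 0.25, 3.94 and 3.17), whose call against control RNAi was lost without construct 1 replicate 2 (0.84) or 3 (0.73). On the lower side, phr, the photolyase gene that repairs ultraviolet damage in DNA, was at 1.68, 1.92 and 3.6 CPM against 7.12, 6.89 and 5.27 CPM. Construct 1 was the lowest of 4 groups, with 21.4 ± 1.74 CPM for construct 2 and 16.8 ± 0.806 CPM in control (-1.48 ± 0.21, -3.22 and -2.87 against control RNAi, construct 2 and control). Lst (CG8317), which encodes the peptide limostatin that restrains insulin release, was at 34.9, 33.8 and 36.1 CPM against 58.4, 61 and 66.4 CPM. It was lower by nearly the same amount in the 3 comparisons (-0.83 ± 0.08, -0.77 and -0.76). CG9150 (-1.47 ± 0.41), CG34456 (-1.43 ± 0.37), Odc2 (-1.27 ± 0.26), CG15332 (-1.21 ± 0.30) and CG30384 (-1.05 ± 0.39) were also lower in all 3, and CG30384 lost its call in 5 of the alternatives that leave out 1 library.

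**Figure D5:**
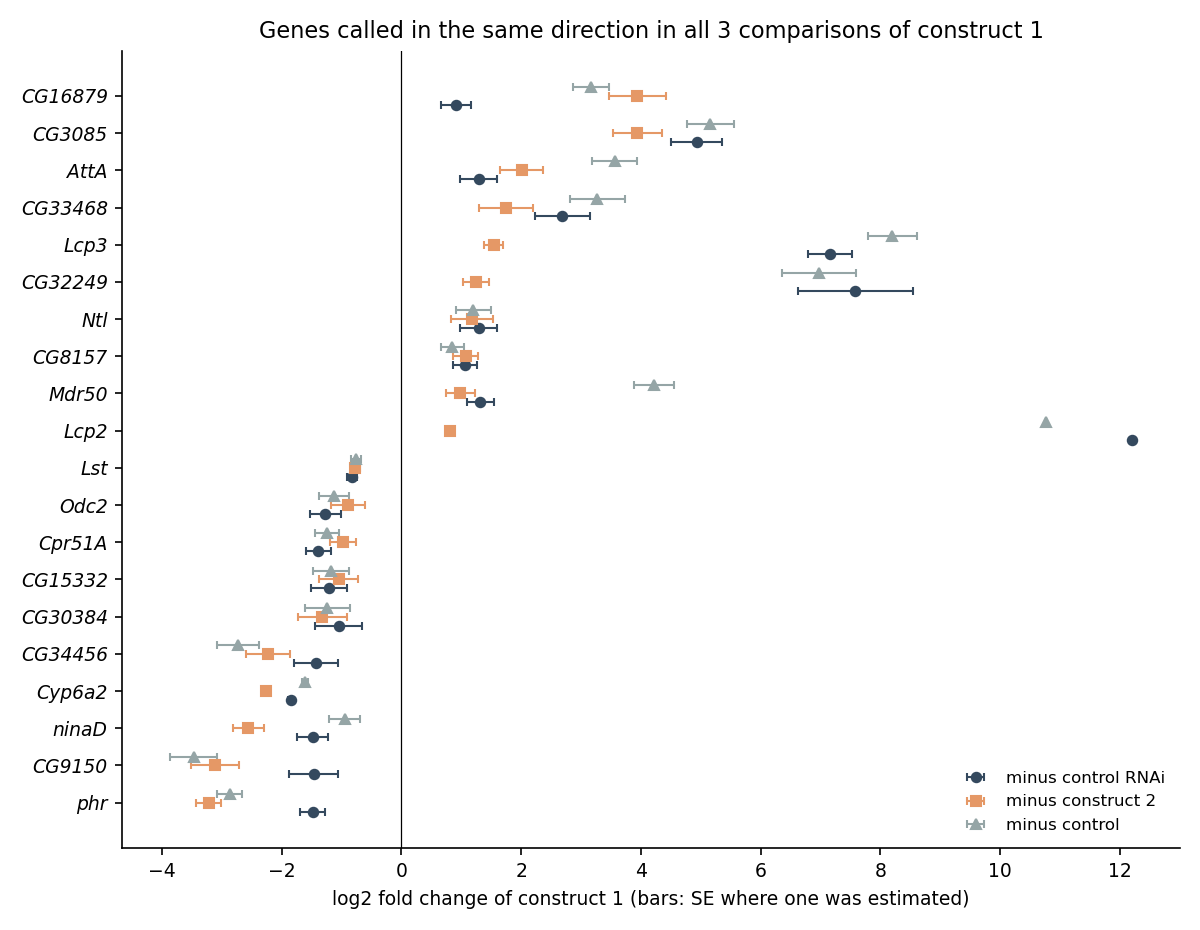
log2 fold change of construct 1 minus control RNAi, construct 2 and control for the 20 genes named for a call in the same direction in all 3; bars are SE, and Lcp2 has none where a group held no or 1 count. The 3 values of Lst, Odc2, CG15332 and CG8157 lie close together, while CG16879, phr and CG9150 are nearest to 0 against control RNAi.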

How the data were processed

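The files hold raw counts per gene symbol, deposited by the authors as whole numbers, with 5 HTSeq summary lines per file that stayed out of library sizes and tests (16.28 to 19.54% of all entries in the 6 libraries compared). BWA, STAR and HTSeq and the dm3 build are named, per the submitters' processing notes. Versions, annotation and strand setting are not given in the sources used here, so overlapping, antisense and near-identical genes are uncertain.

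R 4.3.3 with edgeR 4.0.16 was used: filterByExpr with a minimum count of 10 (10668 of 15682 symbols tested, 5014 left out), TMM scaling, and one robust quasi-likelihood fit over all 15 libraries with 10 residual degrees of freedom. A call required p under 0.05 after Benjamini-Hochberg adjustment across the 10668 genes. The fit was tested on simulated data. A count of 0 allows up to 3 counts, or 0.0901 to 0.2668 CPM per library; intervals are at 95% and cover counting error only. Current names are in the text, file symbols in brackets, and 160 symbols had no match in the reference annotation.

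The comparison, the 62 gene lists and the rule for named genes were chosen with earlier results of these data known. The rule took dpp and both BMP lists, the 12 largest changes in each direction among non-overlapping genes of at least 1 CPM, 10 genes in each direction called in all 3 construct 1 comparisons, up to 4 called genes per list by adjusted p, and the 10 most abundant genes changed at least 2-fold. Alternatives were RLE size factors, no filter on low counts, a replicate block, a fit of the compared groups only, DESeq2 1.42.0, and each library left out in turn. Python 3.11.15 with pandas 2.3.3, numpy 2.4.6 and matplotlib 3.10.9 read the files and drew the plots.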

Additional observations from a re-analysis of the deposited data

How the results depend on the processing

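Construct 1 against control RNAi gave 2744 calls. Other scaling, filtering, fits or DESeq2 gave 2643 to 2823 calls in all, with 2314 to 2673 of the 2744 among them. With a library left out there were 2024 to 2614 calls in all, with 1937 to 2331 of the 2744 among them (2478 and 2210 without construct 1 replicate 2). Against construct 2, 1283 genes (605 higher, 678 lower) became 619 to 1243 (252 to 566 higher, 367 to 677 lower) with a library left out: 619 without construct 2 replicate 1, 682 without construct 1 replicate 3 and 827 without construct 1 replicate 2; the cause was not tested beyond there being fewer libraries. Of 239 called named genes 190 kept their call in all alternatives run, 49 lost it in at least 1, and no value reversed. The replicate block, with 2748 calls (2623 shared), was not used as the main design, because the replicate numbers are not stated to pair samples. Deviations of same-numbered construct 1 and control RNAi libraries correlated at 0.009, 0.02 and -0.035. With 3 libraries per group these values cannot settle whether the libraries were paired. Construct 1 was the group of least depth, which limits genes near or under 1 CPM, such as the odorant receptors.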

Other observations

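Of 85 tested genes of the fourth chromosome, 6 were called higher and 31 lower with construct 1 than in control RNAi (median -0.13). The counts higher and lower were 187 and 243 of 1734 on X, 241 and 238 of 1884 on 2L, 332 and 286 of 2177 on 2R, 234 and 251 of 2024 on 3L and 372 and 285 of 2608 on 3R, with medians between -0.01 and 0.01. Over all tested genes 12.6% were lower, and the difference between arms was not tested.

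Among the 279 genes called lower than in both references were Cks30A and CG17005 of arm 2L. Cks30A, a cyclin-dependent kinase subunit gene, was at 2.07, 1.92 and 2.34 CPM with construct 1, at 9.84, 10.4 and 10.1 CPM in control RNAi and at 15.9 ± 1.61 CPM in control (-2.27 ± 0.25, adjusted p = 1.86e-05, edgeR, and -2.91 against control). CG17005 had the same order of groups, with 18.8 ± 0.927, 72.2 ± 0.766 and 101 ± 9.4 CPM (-1.94 ± 0.12 and -2.43). With construct 2 Cks30A was at 1.07 ± 0.3 CPM and CG17005 at 10.4 ± 1.88 CPM.

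Replicate 3 of construct 1 held more of some structural RNAs. The 28S ribosomal RNA pseudogene CR40741 was at 13.8, 10 and 117 CPM with construct 1 and at 8.2, 4.82 and 2.42 CPM in control RNAi, and the signal recognition particle RNA 7SLRNA:CR32864 at 5.21, 9.05 and 32.3 CPM against 4.81, 2.2 and 1.64 CPM. The part of these RNAs in other results was not tested. Among genes of sex determination and dosage compensation 1 of 18 was higher and 3 were lower, against 13.1% and 12.6% over all genes. dsx was higher (0.58 ± 0.11), and Sxl (-0.37 ± 0.08), Yp3 (-0.54 ± 0.13) and roX1 (-0.25 ± 0.06) were lower than in control RNAi. Against control Sxl was higher (0.55, adjusted p = 0.000176, edgeR), and dsx (0.30), Yp3 (-0.16) and roX1 (-0.05) were not called. Cks30A, CR40741 and 7SLRNA:CR32864 were named after their values were seen.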
